A study of Caenorhabditis elegans with 2 samples.

Results

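The 10 genes described here encode the cyclins and cyclin-dependent kinases (CDKs) that drive the cell division cycle of the nematode Caenorhabditis elegans: cdk-1, cdk-2, cdk-4, cyd-1, cye-1, cya-1, cyb-1, cyb-2.1, cyb-2.2 and cyb-3. They were chosen by name, and all 10 were found among the 19973 protein-coding genes of the 6 nuclear chromosomes in the WBcel235 annotation (the ce11 build). For each gene, LIN-35 chromatin immunoprecipitation sequencing (ChIP-seq) peaks were taken whose summit lay within 1000 bp of the gene's 5′ end or inside the gene. There was 1 group of 2 biological replicates, both from whole first-stage (L1) larvae of both sexes pooled, of strain YL409. That strain carries the allele unc-119(ed3) on chromosome III and the transgene vrIs60, whose product is LIN-35 with GFP and FLAG tags, made under the lin-35 promoter, and which holds a working unc-119 copy as its marker. In the labels the antibody entry reads lin-35, while the free text speaks of an eGFP fusion. It is therefore unclear whether the peaks report the tagged protein alone or untagged LIN-35 as well. The labels name no change of the endogenous lin-35 gene, and no untagged, mutant or other-stage sample was analysed here. Peak lists hold no expression values, so stage and tissue could not be checked against marker genes. All cell types of the larva are mixed, so a peak in few cells and a weak peak in many cannot be told apart.

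LIN-35 is the worm's counterpart of the tumour suppressor Rb. Within the DREAM complex it represses cell cycle genes through the E2F-DP heterodimer and LIN-54. Cyclins bind and activate CDKs: cyclin D (cyd-1) with cdk-4 starts entry into the cycle, cyclin E (cye-1) with cdk-2 drives DNA synthesis, and cyclins A and B (cya-1, cyb-1, cyb-2.1, cyb-2.2, cyb-3) act up to and through mitosis, the B-type ones with cdk-1. In worm genetics, cyd-1 and cdk-4 act upstream of lin-35, counteracting it, while cye-1 is a known downstream target of the pathway.

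Of the 10 genes, 6 had a LIN-35 peak on the authors' list filtered by irreproducible discovery rate (IDR), a measure of how well ranked peaks recur between replicates. That list holds the strongest pooled peaks by signal. These were cdk-1, cdk-2, cdk-4, cye-1, cyb-1 and cyb-3. By the same rule 19.0% of all protein-coding genes had one (3797 of 19973). The remaining 4, cyd-1, cya-1, cyb-2.1 and cyb-2.2, had none. At 5 of the 6 genes an IDR summit lay upstream of the gene, between it and a divergently transcribed neighbour, and at cdk-2 the only IDR summit was in an intron. Counting only summits up to 1000 bp from the 5′ end, 5 of 10 were bound (17.2% of all genes), within 500 bp 3 of 10 (13.6%), and within 250 bp only cdk-1 (9.10%). In the lists that also hold weak peaks, 7 of 10 members had a pooled summit (60.1% of all genes), 8 of 10 a replicate 1 summit (57.9%) and 8 of 10 a replicate 2 summit (60.6%). The members' IDR share was near that of all genes in the narrowest window. No test was made on these counts, because the genes were chosen with earlier results of these data known.

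**Figure D1:**
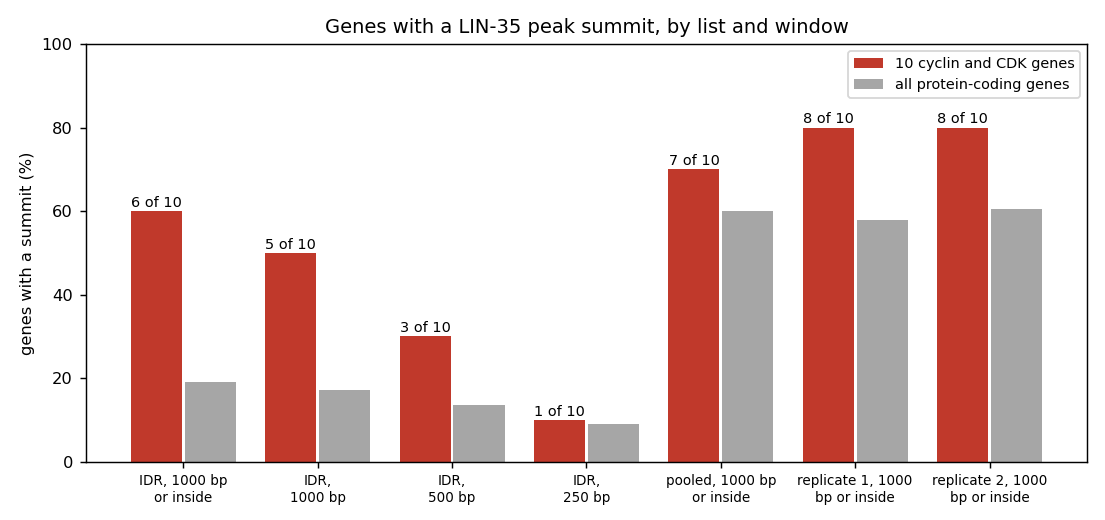
Share of genes (%) with a LIN-35 peak summit, for the 10 cyclin and CDK genes (red, with counts) and for all protein-coding genes (grey), by peak list and by distance of the summit from the 5′ end. The red bars fall from 6 of 10 to 1 of 10 as the window of the IDR list narrows, and the lists that hold weak peaks too reach 57.9% to 60.6% of all genes.

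**Figure D2:**
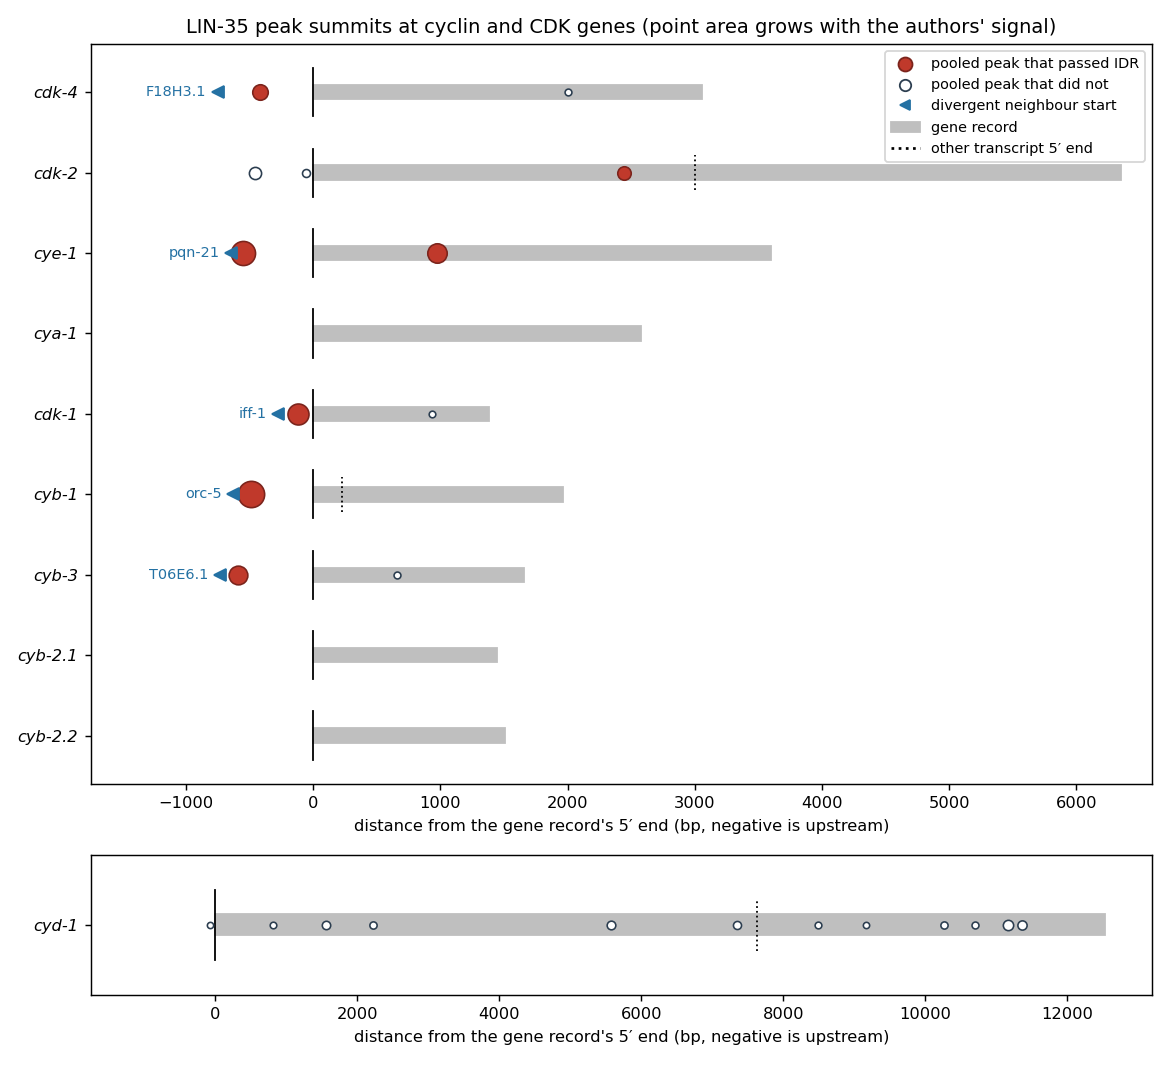
Positions of pooled peak summits (bp from the 5′ end of the gene record) at each gene, with peaks that passed IDR filled red and weaker ones open, point area growing with the authors' signal, and the starts of divergent neighbours marked by blue arrowheads. At cdk-4, cye-1, cdk-1, cyb-1 and cyb-3 a filled point lies between the gene and its neighbour, the second one of cye-1 and that of cdk-2 lie inside the gene, and cyd-1, drawn on its own scale, has 12 open points and no filled one.

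For the genes below, matches to 2 kinds of motif were located around the summits and before the 5′ ends. The E2F-type motif was searched as TTCCCGC or TTCGCGC or TTGCCGC or TTGGCGC, and the CHR-type motif, a cell cycle element that LIN-54 family proteins recognise, as TTTGAA or TTCGAA, all on both strands. A match of the E2F type cannot overlap one of the CHR type, whereas E2F-type matches on opposite strands can overlap each other. TTCGAA reads alike on both strands and was counted once. A match is a run of letters and not a measured binding site. Sequences are from the RefSeq genome of the same assembly, on the strand of the gene, with the match in capitals.

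The kinase gene of the cyclin D pair had an IDR peak, and the cyclin gene had only weaker peaks that did not pass IDR. The gene cdk-4 (WBGene00000406, chromosome X, 13515856 to 13518911, minus strand) had an IDR peak at 13519172 to 13519495, with a signal of 91.1 and rank 2605 of 3838, below the list's median signal of 125. The signal is the authors' value for each peak, and its scale differs between lists, so only ranks are set side by side across lists. The cdk-4 peak ranked 1519 in replicate 1 (signal 40.4) and 2817 in replicate 2 (signal 59.7), with summits 0 and 44 bp from the pooled one. The summit was 423 bp upstream of cdk-4 and 329 bp upstream of F18H3.1, which RefSeq annotates as an SPRY domain protein and which starts 752 bp away on the other strand. No E2F-type or CHR-type match lay within 100 bp of it, and no E2F-type match in the 1000 bp before cdk-4. The bases at this summit are shown as those of the only X-linked member (chrX:13519320-13519349 of ce11, minus strand, no match and so no capitals).
cdk-4 summit: tttaatggtggcagcggtgagaagagtcgg

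At cyd-1 (WBGene00000870, chromosome II, 12980591 to 12993117, plus strand), the cyclin D gene and with 12527 bp the longest member, 12 pooled peaks were listed and none passed IDR. The strongest had a signal of 28.9 (rank 6695 of 30000), in an intron 11162 bp downstream of the 5′ end. The nearest to the start, 75 bp upstream, had a signal of 9.24 and rank 29923, close to the end of the list. Of the 12, 11 overlapped a replicate 2 peak and 4 a peak in both replicates. Among these 4, those 11162 and 11364 bp downstream of the 5′ end overlapped each other and the same peak of each replicate. Of all pooled peaks outside the IDR list 25.8% overlapped a peak in both, and of IDR peaks 97.2%. The density was 0.887 pooled peaks per kb over the cyd-1 window. It was 0.840 at cdk-1, 0.752 at cyb-3 and 0.338 to 0.493 at the other members with a pooled peak. Over the nuclear genome, sequence between genes included, it was 0.299 per kb. A second transcript of cyd-1 starts 7632 bp into the gene record, and the nearest pooled summit before it, 283 bp upstream, had a signal of 17.2. The nearest IDR summit was 35577 bp upstream of cyd-1. An E2F-type match stood 65 bp upstream of the gene record's start. The weak pooled peak 75 bp upstream covered it, as did a weak replicate 2 peak. The match is shown because no IDR peak lay over it (chrII:12980512-12980541, plus strand, the capitals being the reverse complement of TTCCCGC).
cyd-1 E2F-type match: caattcactttGCGGGAAataatgcgtgct

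In the cyclin E and cdk-2 pair the peaks differed in strength and place. The cyclin E gene cye-1 (WBGene00000871, chromosome I, 6780799 to 6784397, plus strand) had 2 IDR peaks. The stronger, at 6780118 to 6780413, had a signal of 660, rank 284, and ranked 227 in replicate 1 (signal 235.05) and 321 in replicate 2 (signal 427). Its summit was 551 bp upstream of cye-1 and 97 bp upstream of pqn-21, which starts 648 bp from cye-1 on the other strand and is annotated by RefSeq as a C2H2-type domain protein. This was the only member peak with more than 1 E2F-type match within 50 bp of the summit, a TTGCCGC 25 bp and a TTCGCGC 44 bp away.

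The second cye-1 peak lay in an intron, at 6781651 to 6781899, with a signal of 220 and rank 1073. Its summit was 972 bp downstream of the cye-1 start and 32 bp upstream of a tRNA gene (WBGene00022955, a cysteine tRNA in RefSeq) that lies inside cye-1 on the same strand. The peak ranked 1896 in replicate 1 (signal 31.5) and 888 in replicate 2 (signal 185), whereas the peak before the gene ranked higher in replicate 1 than in replicate 2. Of the 612 annotated nuclear tRNA genes, 26.1% had a summit of the IDR list no more than 250 bp from the 5′ end. Whether this peak belongs to cye-1 or to the tRNA gene cannot be told apart.

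At cdk-2 (WBGene00019362, chromosome I, 3410013 to 3416368, plus strand), the kinase partner of cyclin E, the IDR peak was the weakest of the members' 7. It lay in an intron at 3412292 to 3412615, 2441 bp downstream of the gene's start, with a signal of 57.8, where the IDR list ends at 56.0. Its rank was 3736 of 3838, and it ranked 3094 in replicate 1 (signal 16.9) and 4261 in replicate 2 (signal 36.6), so replicate 2 placed it outside its own 3838 strongest peaks. The summit was 558 bp upstream of the 5′ end of the shorter cdk-2 transcript. The only other gene start within 1000 bp was that of the antisense RNA gene anr-45, 989 bp away. Before the gene, 460 bp upstream, a pooled peak with a signal of 43.8 and rank 4648 did not pass IDR. Its signal was below the lowest of the IDR list. It overlapped a peak in both replicates, as did 25.8% of pooled peaks outside that list. Its replicate 1 peak ranked 2405 (signal 23.9), above the intron peak there. Its replicate 2 peak ranked 6158 (signal 23.7), below the intron peak. A weaker pooled peak (signal 16.8) lay 58 bp upstream of the gene and overlapped a peak of replicate 2 only. E2F-type matches stood 431 and 83 bp upstream of cdk-2, in the same stretch as these 2 weaker peaks.

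The cyclin A gene cya-1 (WBGene00000863, chromosome III, 9106699 to 9109272, minus strand) had no IDR or pooled peak by the rule. Replicate 1 had 1 weak peak there, with its summit 198 bp inside the gene (rank 8296 of 23861). Replicate 2 had 2, at 511 and 1229 bp inside it (ranks 17168 and 26433 of 30000). None of the replicate 2 peaks overlapped that of replicate 1. The nearest pooled summit lay 1618 bp upstream of cya-1, outside the rule (signal 20.4, rank 9903 of 30000). The nearest IDR summit was 16814 bp upstream, at sec-16A.1. No E2F-type match lay in the 1000 bp before cya-1.

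Among the mitotic genes and over all 10, cyb-1 had the strongest peak of the group. This B-type cyclin gene (WBGene00000865, chromosome IV, 10735216 to 10737177, plus strand) had an IDR peak at 10734573 to 10734865 with a signal of 1120, rank 120 of 3838 and 8.97 times the list's median. The peak ranked 134 in replicate 1 (signal 310) and 110 in replicate 2 (signal 810), and the replicate summits lay 4 and 1 bp from the pooled one. Both replicates thus placed it among their strongest 1%: 99.4% of replicate 1 peaks and 99.6% of replicate 2 peaks were weaker. The summit lay between protein-coding genes, 489 bp upstream of cyb-1 but only 139 bp upstream of orc-5, an origin recognition complex subunit gene that starts 628 bp away on the other strand. From the second cyb-1 transcript, which starts 226 bp further downstream, the summit was 715 bp away. An E2F-type match lay 31 bp from the summit and another 113 bp from it. Both are shown because they are the matches nearest to the strongest peak of the group, with the reverse complements of TTCGCGC and TTGGCGC in capitals, at chrIV:10734744-10734773 and chrIV:10734826-10734855 (ce11, plus strand).
cyb-1 site near the summit: gtcgtattgcaGCGCGAAccttgaaaataa
cyb-1 site further from the summit: tcaatttttcgGCGCCAAgaatttattttt

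The mitotic kinase gene cdk-1 (WBGene00000405, chromosome III, 9747472 to 9748852, plus strand), whose product pairs with B-type cyclins, had the IDR summit closest to its start. The peak, at 9747248 to 9747471, had a signal of 318 and rank 688. It ranked 541 in replicate 1 (signal 116) and 775 in replicate 2 (signal 207), the replicate summits lying 15 and 0 bp from the pooled one. The summit was 120 bp upstream of cdk-1 and 159 bp upstream of iff-1, an eIF5A translation factor gene whose 5′ end lies 279 bp away on the other strand. Of the 5 genes with an upstream IDR summit, cdk-1 was the only one whose start lay nearer to it than the neighbour's. No E2F-type or CHR-type match lay wholly within 50 bp of the summit, and a TTTGAA match was centred 48 bp away, reaching past that limit. The E2F-type matches in the 1000 bp before cdk-1 lay in an intron of iff-1, between 463 and 540 bp from the summit. The bases around the cdk-1 summit are shown for comparison with those of cyb-1 (chrIII:9747338-9747367, plus strand, no match and so no capitals).
cdk-1 summit: ttttcactaagcaatggtctcgcaccgact

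The other B-type cyclin with a peak was cyb-3 (WBGene00000868, chromosome V, 15395696 to 15397353, plus strand). Its IDR peak, at 15395018 to 15395212, had a signal of 187, rank 1255, and ranked 1430 in replicate 1 (signal 43.1) and 1219 in replicate 2 (signal 141), with summits 5 and 0 bp from the pooled one. The summit was 595 bp upstream of cyb-3 and 140 bp upstream of T06E6.1, a gene that RefSeq annotates as a WD repeat protein and that starts 735 bp away on the other strand. A CHR-type match, TTTGAA, lay 29 bp from the summit, and the E2F-type match before cyb-3 was 458 bp from it, 137 bp upstream of the gene. Both are shown, since they lie at opposite ends of the interval (chrV:15395115-15395144 and chrV:15395545-15395574, plus strand).
cyb-3 CHR-type match near the summit: acaagcggcagaTTTGAAtgcgatttctgc
cyb-3 E2F-type match near the gene: ccaccaagaggGCGGCAAtttccagtgttc

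No peak of the pooled list or of either replicate list met the rule at cyb-2.1 (WBGene00000866, chromosome IV, 10985985 to 10987426) or cyb-2.2 (WBGene00000867, chromosome I, 4114861 to 4116370), 2 closely related B-type cyclin genes. The nearest pooled summits lay 1405 bp upstream of cyb-2.1 (signal 21.1) and 3002 bp upstream of cyb-2.2 (signal 10.9), and the nearest IDR summits 9833 and 17422 bp away. Over all protein-coding genes, 39.9% had no pooled peak by the rule. The sequences of cyb-2.1 and cyb-2.2 repeat each other in part: of the 36-base words in their windows, 68.0% and 67.0% occurred once in the genome, against 92.0% to 100% at the other members, and 731 words of the cyb-2.1 window occurred in that of cyb-2.2. Within the 1000 bp before the 5′ end the shares were 88.9% and 83.6%, and 100% at all other members. The sources used here do not give how reads that map to several places were counted. The part of such reads in the absence of peaks was not tested. Neither gene had an E2F-type match in the 1000 bp before its 5′ end.

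Ordered by their strongest pooled peak, the genes ran cyb-1, cye-1, cdk-1, cyb-3, cdk-4, cdk-2 and cyd-1, and cya-1, cyb-2.1 and cyb-2.2 had none. Of all protein-coding genes, 0.851% had a pooled peak at least as strong as that of cyb-1, 2.03% as that of cye-1, 5.07% as that of cdk-1 and 8.45% as that of cyb-3. The shares were 14.8% for cdk-4, 18.7% for cdk-2 and 25.5% for cyd-1. Each count includes the gene itself. The windows searched differed in length: 13527 bp at cyd-1 and 7356 bp at cdk-2, against 2381 to 4599 bp at the other members. The values of cyd-1 and cdk-2 are those of intron peaks, that of cyd-1 11162 bp downstream of the 5′ end. In both replicates the peaks of cyb-1, cye-1 and cdk-1 kept the order given above, and their ranks did not overlap. The ranks of cyb-3 (1219 to 1430) and cdk-4 (1519 to 2817) did not overlap either but came close, and in replicate 1 they were nearly level.

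**Figure D3:**
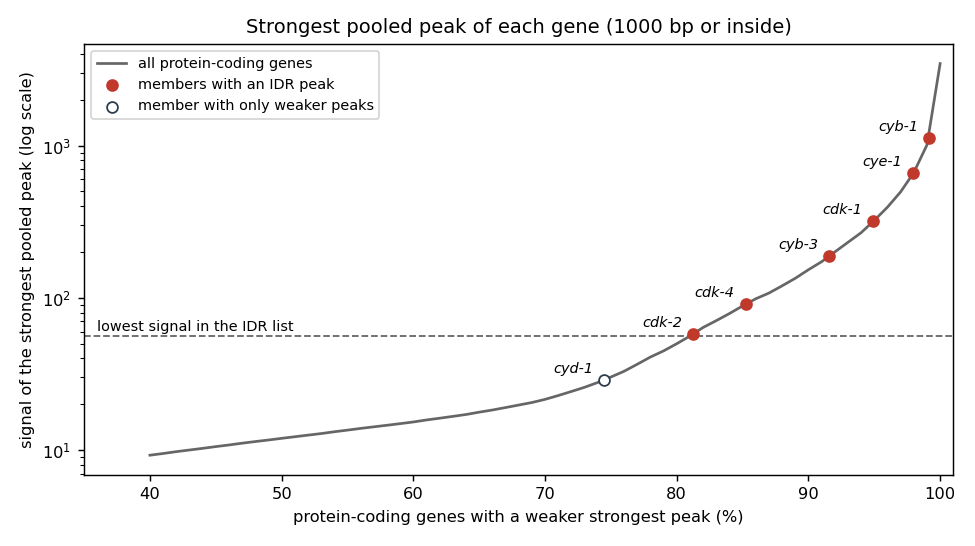
Signal of the strongest pooled peak of each gene (log scale) against the share of protein-coding genes with a weaker one (%), with members marked by points on the curve of all genes and the lowest IDR signal as a dashed line. The 6 members with an IDR peak run from 57.8 at cdk-2 to 1120 at cyb-1, and cyd-1, at 28.9, lies below the line.

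**Figure D4:**
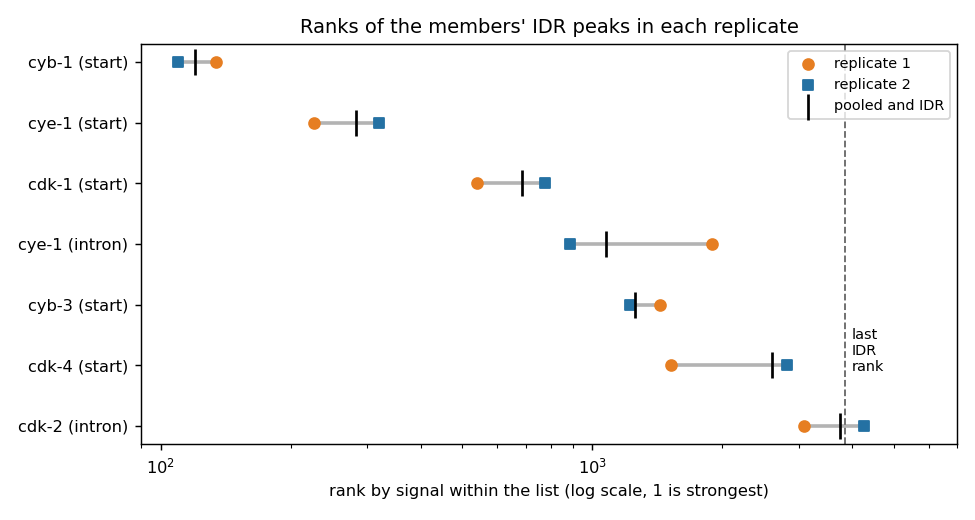
Ranks by signal (log scale, 1 is strongest) of the 7 IDR peaks of the members in replicate 1 (circles), replicate 2 (squares) and the pooled list (black ticks), with the last IDR rank dashed. On this scale the replicates lie closest at cyb-3, at 1430 and 1219, and the square of the cdk-2 intron peak lies past the dashed line.

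The members' peaks were shared with other genes throughout. At all 5 genes bound up to 1000 bp from the start, the strongest such summit also lay within 1000 bp of another protein-coding start, which held for 56.0% of the 3436 genes so bound. At 4 of the 5, all but cdk-1, the other start was the nearer one, against 28.8% of those 3436 genes. The members' summits lay 120 to 595 bp from the 5′ end, with a median of 489 bp, where the median of all such genes was 244 bp. All 5 were upstream, as were 89.3% of all. With each peak counted only for the protein-coding gene whose start was nearest, 3 of 10 members had an IDR peak by the 1000 bp rule (13.6% of all genes). These were cdk-1, cdk-2 and cye-1, the last 2 through their intron peaks. That count leaves out the tRNA gene inside cye-1, whose start lay 32 bp from the cye-1 intron summit. Which gene of a divergent pair a peak serves cannot be told apart in these data.

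E2F-type matches lay within 50 bp of the summit at 2 of the members' 7 IDR peaks, those of cyb-1 and of cye-1 before the gene. All IDR peaks held one in 13.0% of cases, IDR peaks within 1000 bp of a protein-coding start in 14.9%, and pooled peaks outside the IDR list in 4.05%. A CHR-type match lay within 50 bp of 1 of the 7, that of cyb-3, where the shares were 24.6% of all IDR peaks, 29.3% of those near a protein-coding start and 25.197% of pooled peaks outside the list. No member peak held both types in that window, as 5.91% of all IDR peaks did. Within 100 bp, the members' peaks with an E2F-type match were still 2 of 7. The E2F-type shares in that window were 18.3% of all IDR peaks, 20.3% of those near a protein-coding start and 7.63% of pooled peaks outside the list. A CHR-type match lay within 100 bp at 4 of the 7, those of cdk-1, cdk-2, cyb-3 and of cye-1 before the gene. The CHR-type shares were 43.3% of all IDR peaks, 49.8% of those near a protein-coding start and 44.6% of pooled peaks outside the list. In the same window 1 member peak, that of cye-1 before the gene, held both types, as 10.6% of all IDR peaks did. In the 1000 bp before the 5′ end, 6 of 10 members had an E2F-type match (cdk-1, cdk-2, cyd-1, cye-1, cyb-1 and cyb-3) against 26.6% of all protein-coding genes, while CHR-type matches were present at 10 of 10 and 97.8%. With so few peaks these shares are a description.

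Other cell cycle genes are given by lists chosen by name. Of 9 other regulators of CDKs, cki-2 (a CDK inhibitor) and wee-1.3 (an inhibitory kinase, signal 1784, rank 24) had an IDR summit by the 1000 bp rule, 2 of 9, and both had it within 500 bp. Of 12 genes for cyclin turnover 4 did (emb-27, fzy-1, lin-23 and mat-1), and within 500 bp 2, the strongest at emb-27, a subunit of the anaphase promoting complex (signal 239, rank 970, shared with rrf-3). Of 15 other CDK and cyclin genes, most of which act in transcription, 13 had one, and 11 within 500 bp, the strongest at cic-1, a cyclin C gene (signal 827, rank 206, shared with strm-1). Of 9 genes for LIN-35 and its DREAM and E2F partners 7 did, and 6 within 500 bp, led by efl-1, an E2F gene (signal 1964, rank 17, shared with fbxa-90). The background for these counts is the 19.0% and 13.6% of all genes given above. Outside the list, the genes whose strongest IDR peak within 500 bp ranked nearest to that of cyb-1, over this 1 pooled list, were orc-5, through the same peak, and pir-2, mppb-1, smr-1 and E01B7.2 (ranks 117 to 122).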

How the data were processed

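LIN-35 was profiled in 2 biological replicates, and the values used are peak lists in ce11. Per the labels, fragments were 150 to 350 bp. The submitters' manifest derives each replicate's peaks from that replicate and a control, pooled peaks from all of these alignments, and the IDR list from the other 3. No source used here names the aligner, the peak caller or the IDR cutoff. The authors' deposited signal value per peak served for ranks and description, and their deposited −log10 q-value, equal in all IDR peaks, was not used to rank. The IDR list was checked to hold exactly the 3838 strongest of the 30000 pooled peaks. Replicate 1 had 23861 peaks and replicate 2 had 30000, and 95.4% and 93.8% of them had the same width. Read depth is unknown.

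Ensembl release 115 gave the genes, and their 5′ ends are those of gene records, which in trans-spliced genes can lie downstream of the true start. Printed coordinates start at 1. Summits were assigned to coding exons, UTRs, introns or between protein-coding genes. Peaks of 2 lists matched when they overlapped by at least 1 bp. Sequences are from the RefSeq genome of WBcel235, the same assembly, and no peak ran past a chromosome end. Words of 36 bases were counted over the nuclear genome. Python 3.11.15 with pandas 2.3.3 was used, and the assignment was tested on simulated data. Of the ce10 files only the size of the IDR list was used.

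The members and lists were chosen with earlier results of these data known. All 10 members were named, with every gene whose start lies within 1000 bp of their IDR summits, and the strongest gene within 500 bp of each other list; genes of the counted lists, and genes nearest to a distant summit, were named after their values were seen. No statistical test was made.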

Additional observations from a re-analysis of the deposited data

How the results depend on the processing

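Shares in brackets are those of all protein-coding genes under the same setting. With an IDR summit within 1000 bp of the start or inside the gene, 6 members were counted (19.0%). This count stayed within 1.5 times under all settings tried but nearest start only, which gave 3 (13.6%). It was 4 among the 1919 strongest IDR peaks (11.6%), where cdk-2 and cdk-4 dropped out. In the 3838 strongest peaks of 1 replicate it was 6 in replicate 1 (18.5%) and 5 in replicate 2 (19.1%), where cdk-2 was lost. The count of 3 within 500 bp (13.6%) rested on a narrow margin. The summits of cyb-1, cye-1, cdk-4 and cyb-3 all lay within 100 bp of that limit. The count was 1 with nearest start only (10.6%), 1 within 250 bp (9.10%) and 5 when any overlap of the peak interval counted (14.6%). In a single replicate it was 4 in replicate 1 (13.1%) and 3 in replicate 2 (13.6%). The count of 7 with a pooled peak (60.1%) was 8 in each replicate list (57.9% and 60.6%), which added weak peaks at cya-1. The count of 3 of the 7 member peaks with a motif of either type was 5 within 100 bp of the summit. Of all IDR peaks, 31.7% held such a match within 50 bp and 51.0% within 100 bp. For those near a protein-coding start the shares were 37.0% and 57.1%. None of the members was a candidate downstream operon gene, so leaving such genes out changed no member. With 4839 pooled peaks, the size of the ce10 IDR list and a setting chosen after seeing the data, the pooled peak before cdk-2 entered. This gave 4 within 500 bp (15.4%) and 6 by the wider rule (21.7%). Ranks of single genes by replicate are given with each gene. No paired analysis was possible because there is only 1 group. Read depth is unknown, so no peak's absence shows that LIN-35 was absent.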
